A study of Mus musculus with 8 samples.

Results

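The genes described here are 9 genes of the type I interferon response, taken by symbol from a table of 16994 genes: Irf7, Ifit1, Ifit2, Ifit3, Isg15, Usp18, Oasl2, Rsad2 and Bst2. All 9 were found, and all 9 entered the tests, which took the 12999 genes whose CPM (counts scaled to a fixed library size) averaged 1 or more. They were read as a measure of innate sensing in mouse hearts that lack TIGAR, a p53-induced phosphatase that slows glycolysis, since the study concerns mitochondrial change in these hearts.

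RNA of heart tissue from male mice was sequenced without replicates, giving 8 libraries from 2 genotypes and 4 regions. The genotypes were wild type (WT) and whole-body TIGAR knockout (TKO), and the TIGAR allele traces to a C57BL/6N line. The left anterior descending coronary artery was tied at 16 weeks of age, and the infarct, border and remote zones were taken 4 weeks later. The left ventricle of each genotype served as the reference; whether its mice had a sham operation is not given in the sources used here. RNA of 3 mice per genotype was pooled for the infarct zone, and the number of mice behind the other libraries is not given in the sources used here. With 1 library per genotype and region, a difference between 2 libraries has no replicate check, and the intervals given with ratios cover counting error only.

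Type I interferons are released when a cell senses foreign or misplaced nucleic acid, including mitochondrial DNA or RNA that has reached the cytosol. They bind the receptor made of Ifnar1 and Ifnar2, and the kinases Jak1 and Tyk2 then switch on the transcription factor complex ISGF3, of which Irf9 is a part. ISGF3 binds interferon-stimulated response elements in the promoters of genes such as these. In an infarcted heart, macrophages that take up dying cells are a known source of the response.

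The promoters of these genes were searched for the core of that element, written GAAANNGAAA, on both strands. RefSeq windows (GRCm38.p6) of 300 bases, from 250 before to 50 after the start of the gene, were at hand for 8 of the 9 genes, and Usp18 had none. The core was found in 5 of the 8 genes, Isg15, Bst2, Ifit3, Ifit1 and Rsad2. It was found in 3.44% of all 32851 windows and in 3.99% of the 27025 genes that have one. The windows of Irf7, Ifit2 and Oasl2 did not hold these letters. The stretches below run from 160 to 51 bases before the start of the gene, 5′ to 3′ on the gene's strand, with the core in capitals; they are shown because the genes that share the core differed in the infarct zone, as given further on. The stretch of Isg15 lies at chr4:156200869-156200978 (minus strand), that of Bst2 at chr8:71537523-71537632 (minus), that of Ifit3 at chr19:34583369-34583478 (plus), that of Ifit1 at chr19:34640729-34640838 (plus) and that of Rsad2 at chr12:26456503-26456612 (minus).
Isg15: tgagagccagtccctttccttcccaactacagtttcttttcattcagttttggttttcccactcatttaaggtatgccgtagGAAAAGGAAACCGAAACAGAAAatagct
Bst2: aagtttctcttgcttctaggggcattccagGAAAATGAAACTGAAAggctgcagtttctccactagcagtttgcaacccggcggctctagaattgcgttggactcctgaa
Ifit3: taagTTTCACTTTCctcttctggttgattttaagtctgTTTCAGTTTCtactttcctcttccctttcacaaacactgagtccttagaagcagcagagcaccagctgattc
Ifit1: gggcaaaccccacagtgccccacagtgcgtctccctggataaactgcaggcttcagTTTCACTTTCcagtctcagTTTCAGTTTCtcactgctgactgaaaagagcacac
Rsad2: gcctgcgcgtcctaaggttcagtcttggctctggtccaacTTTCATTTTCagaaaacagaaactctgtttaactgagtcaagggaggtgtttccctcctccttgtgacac

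Isg15 held 3 overlapping copies that begin 78, 72 and 66 bases before the start, and Bst2 held 2 overlapping copies that begin 130 and 124 bases before it. Ifit3 and Ifit1 each held 2 separate copies on the opposite strand, at 156 and 122 bases and at 104 and 85 bases. Rsad2 held 1 copy on the opposite strand, 120 bases before its start. The copies of Ifit1 also lie in the promoter of Ifit1bl2, a related gene whose start is 145 bases away and which is read in the other direction. A match is a description of the letters and not of binding.

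**Figure D1:**
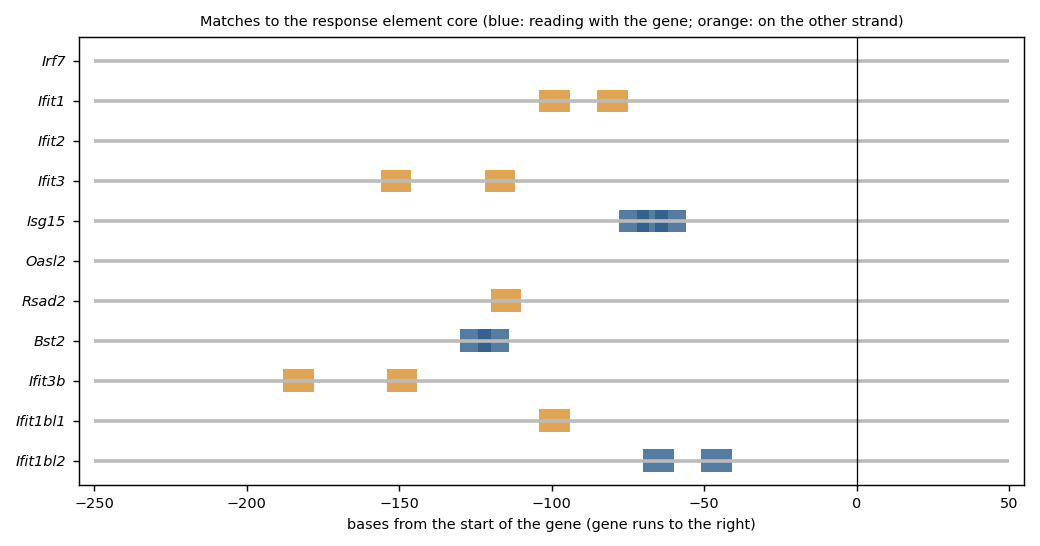
Position of each match to the response element core in the promoter windows of 8 interferon-stimulated genes and 3 Ifit relatives, in bases from the start of the gene; blue boxes read with the gene and orange boxes on the other strand, and for genes with more than 1 window the first is drawn. Isg15 holds 3 overlapping matches and Bst2 2, while Irf7, Ifit2 and Oasl2 hold none.

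Library totals ran from 27429240 to 33799249 counts. Tigar itself had 1066 to 2215 counts in the WT libraries and 51 to 87 in the TKO libraries. Heart muscle markers were present in every library, with a summed level of 12 genes between 15000 CPM in the WT infarct zone and 52580 CPM in the TKO left ventricle. The share of counts from the 13 mitochondrial DNA-encoded genes was 20.7% in the WT infarct zone and 27.9% in the TKO infarct zone, against 36.6% to 39.3% in the other 6 libraries. All CPM below were scaled with trimmed mean of M values (TMM) factors, which were 1.54 for the WT infarct zone, 1.26 for the TKO infarct zone and 0.866 to 0.956 elsewhere.

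Per kilobase of annotated exon, Bst2 had the highest mean level over the 8 libraries, at 26.3 CPM per kb, followed by Ifit3 at 11.4, Isg15 at 6.72, Ifit2 at 5.89, Rsad2 at 4.63, Ifit1 at 4.01, Irf7 at 3.92, Oasl2 at 2.21 and Usp18 at 1.71 CPM per kb. The ranges over libraries of each pair of neighbours in this order overlapped. Each range mixes the regions, and all genes were measured in the same libraries, so overlap alone does not decide a step. Bst2 had 24.4 CPM per kb in the mean of the left ventricle libraries, against 5.74 for Ifit3. In the mean of the infarct zone libraries the values were 34.3 and 20.9. Neighbours were not compared library by library.

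The infarct zone was where these genes differed most from the left ventricle. Across both genotypes 8 of the 9 were higher there, from 0.48 for Bst2 to 1.85 for Ifit3 on the log2 scale, and Rsad2 was not called. The count of 8 fell to 5 without the WT infarct zone library and to 5 without the WT left ventricle library, when Irf7, Isg15 and Bst2 lost their calls. Higher calls were made for 28.2% of all genes tested, so a call in this zone was common, and the members' median log2 change was 0.93 against 0.02 over all genes tested. The 2 infarct zone libraries lay above the other 6 libraries for the same 8 genes, an arrangement found for 32.9% of all genes tested. For Irf7 the margin was small, at 15.78 against 15.61 CPM. The test was edgeR's quasi-likelihood test with genotype as a block and Benjamini-Hochberg adjustment over all 12999 genes; it treats the 2 genotypes as replicates of a zone, so its p-values concern these libraries and not mice.

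Irf7 is the transcription factor that amplifies interferon production once the response has begun (chr7:141262706-141266481, minus strand). In WT libraries its level was 10.4 CPM in the left ventricle, 13.6 in the border, 14.5 in the remote and 21.9 in the infarct zone. In TKO libraries it was 12.2, 14.5, 15.6 and 15.8 CPM in the same order. The WT infarct zone stood above the other 7 libraries, and the TKO infarct zone was close to the TKO remote zone. The infarct zone difference across genotypes was 0.74 ± 0.18 (SE) on the log2 scale, with an adjusted p of 0.0143 in edgeR's quasi-likelihood test. Without the WT infarct zone library it was 0.43 (adjusted p = 0.0659, edgeR), and without the WT left ventricle library 0.57 (adjusted p = 0.0788, edgeR), so that the call of Irf7 rested on both.

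The 3 Ifit genes, which encode RNA-binding proteins that block the translation of viral messages, lie together on chromosome 19. Ifit3 (chr19:34583531-34588731, plus strand) changed more than the other 8. Its WT levels were 8.94 CPM in the left ventricle, 17.7 in the border, 17.2 in the remote and 42.2 in the infarct zone, and its TKO levels were 11.1, 15.3, 15.7 and 30.8 CPM. The left ventricle was the lowest region and the infarct zone the highest in both genotypes. The infarct zone difference of Ifit3 was 1.85 ± 0.18 (SE) on the log2 scale, with an adjusted p of 0.000768 in edgeR's quasi-likelihood test.

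Ifit1 (chr19:34640871-34650009, plus strand), which binds viral RNA that lacks a complete cap, followed the same order of zones in part. It was at 6.53, 11.2, 8.05 and 18.7 CPM in the WT left ventricle, border, remote and infarct zones and at 7.11, 8.53, 8.97 and 16.2 CPM in the TKO ones. Ifit2 (chr19:34550694-34576419, plus strand) was at 17.1, 24.6, 22.1 and 31.4 CPM in WT and at 18.5, 22.1, 21.4 and 27.95 CPM in TKO. Both genes were highest in the 2 infarct zone libraries and lowest in the 2 left ventricle libraries. The infarct zone difference was 1.35 for Ifit1 and 0.74 for Ifit2 on the log2 scale, with adjusted p of 0.00149 and 0.0021 in edgeR's quasi-likelihood test.

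Relatives of the Ifit genes lie on the same chromosome, and where sequence is shared an abundance estimate can split reads. Of the 31-base words of Ifit3, 61.8% also occur in Ifit3b, and 9.2% of those of Ifit1 occur in Ifit1bl2. This sharing can make their values uncertain, by an amount that was not measured. Isg15 shares 13.1% of its words with other genes. Ifit2 and Bst2 share no such word with another gene, and the other 4 members share 0.4% to 3.5%. Ifit3b rose with Ifit3, by 1.27 on the log2 scale (adjusted p = 0.00338, edgeR). Ifit1bl1 and Ifit1bl2 were lower in the infarct zone, by -1.02 and -1.47 on the log2 scale (adjusted p = 0.00595 and 0.00312, edgeR). Ifit1bl2, which shares a promoter region with Ifit1, went from 5.44 to 1.58 CPM in WT while Ifit1 went from 6.53 to 18.7 CPM. The relatives' summed level stayed between 14.8 and 16.6 CPM in all 8 libraries.

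Isg15 is a ubiquitin-like protein that is joined to other proteins, and Usp18 is the protease that takes it off again and that also dampens signalling at the receptor. Isg15 (chr4:156199424-156200818, minus strand) was at 3.61, 4.41, 4.31 and 8.56 CPM in the WT left ventricle, border, remote and infarct zones and at 4.79, 4.25, 3.06 and 7.64 CPM in the TKO ones. Usp18 (chr6:121245906-121270917, plus strand) was at 3.32, 3.77, 4.47 and 6.74 CPM in WT and at 4.09, 4.05, 4.32 and 7.33 CPM in TKO. The pair rose by a like amount in the infarct zone, 0.94 for Isg15 and 0.93 for Usp18 on the log2 scale, with adjusted p of 0.017 and 0.00665 in edgeR's quasi-likelihood test. The call of Isg15 was lost without the WT infarct zone (0.90, adjusted p = 0.0897), the TKO infarct zone (1.01, adjusted p = 0.0619) or the WT left ventricle (0.64, adjusted p = 0.0717, all edgeR). Among the 8 genes that rose, Usp18 was the 1 whose infarct zone level was above that of WT in TKO, though with total counts its TKO over WT ratio there was 0.887. These 2 genes had the fewest counts, 91 to 362 per library.

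Oasl2, an oligoadenylate synthetase-like protein that responds to double-stranded RNA (chr5:114896936-114912234, plus strand), was at 7.26, 11.5, 10.3 and 29.1 CPM in the WT left ventricle, border, remote and infarct zones. In TKO libraries it was at 10.8, 10.7, 10.7 and 22.0 CPM. The 3 TKO regions outside the infarct could hardly be told apart, and the WT left ventricle was the lowest of the 8. The infarct zone difference of Oasl2 was 1.51 ± 0.22 (SE) on the log2 scale, with an adjusted p of 0.0022 in edgeR's quasi-likelihood test.

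Bst2, or tetherin, holds budding virus particles at the cell surface and is also known in mice as a surface marker of plasmacytoid dendritic cells (chr8:71534255-71537456, minus strand). It was at 21.2, 20.9, 22.5 and 35.0 CPM in the WT left ventricle, border, remote and infarct zones and at 22.8, 20.9, 19.6 and 26.97 CPM in the TKO ones. Its difference of 0.48 ± 0.13 (SE) on the log2 scale was below that of the other 7 genes called (adjusted p = 0.0217, edgeR), and the call was lost without the WT infarct zone (0.32, adjusted p = 0.14, edgeR) or the WT left ventricle library (0.33, adjusted p = 0.102, edgeR). Siglech, a marker of plasmacytoid dendritic cells, had 9 to 49 counts per library.

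Rsad2, or viperin, makes a chain-terminating nucleotide that stops viral RNA synthesis (chr12:26442746-26456452, minus strand). It did not follow the other 8 genes. Its level was 18.9, 23.0, 21.4 and 16.8 CPM in the WT left ventricle, border, remote and infarct zones and 18.6, 19.4, 21.9 and 20.6 CPM in the TKO ones. The WT infarct zone, the highest library for 7 of the other genes, was the lowest for Rsad2. Its infarct zone difference was -0.01 ± 0.14 (SE) on the log2 scale, with an adjusted p of 0.973 in edgeR's quasi-likelihood test. This call turned on the scaling: with CPM of the total counts the difference was 0.67 (adjusted p = 0.00332, edgeR), a scaling that also moved the median of all genes by 0.85 in WT and by 0.56 in TKO on the log2 scale. Over the 8 libraries the Pearson correlation of Rsad2 with the mean of the other 8 genes was -0.33, while those of the other genes with the rest ran from 0.851 to 0.983. These points share libraries and scaling and are given as a description.

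Cmpk2, a nucleotide kinase gene read away from Rsad2 at its side (chr12:26469204-26479837, plus strand), was at 9.88 to 12.9 CPM in all 8 libraries, and its infarct zone difference was 0.11 on the log2 scale (adjusted p = 0.508, edgeR).

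**Figure D2:**
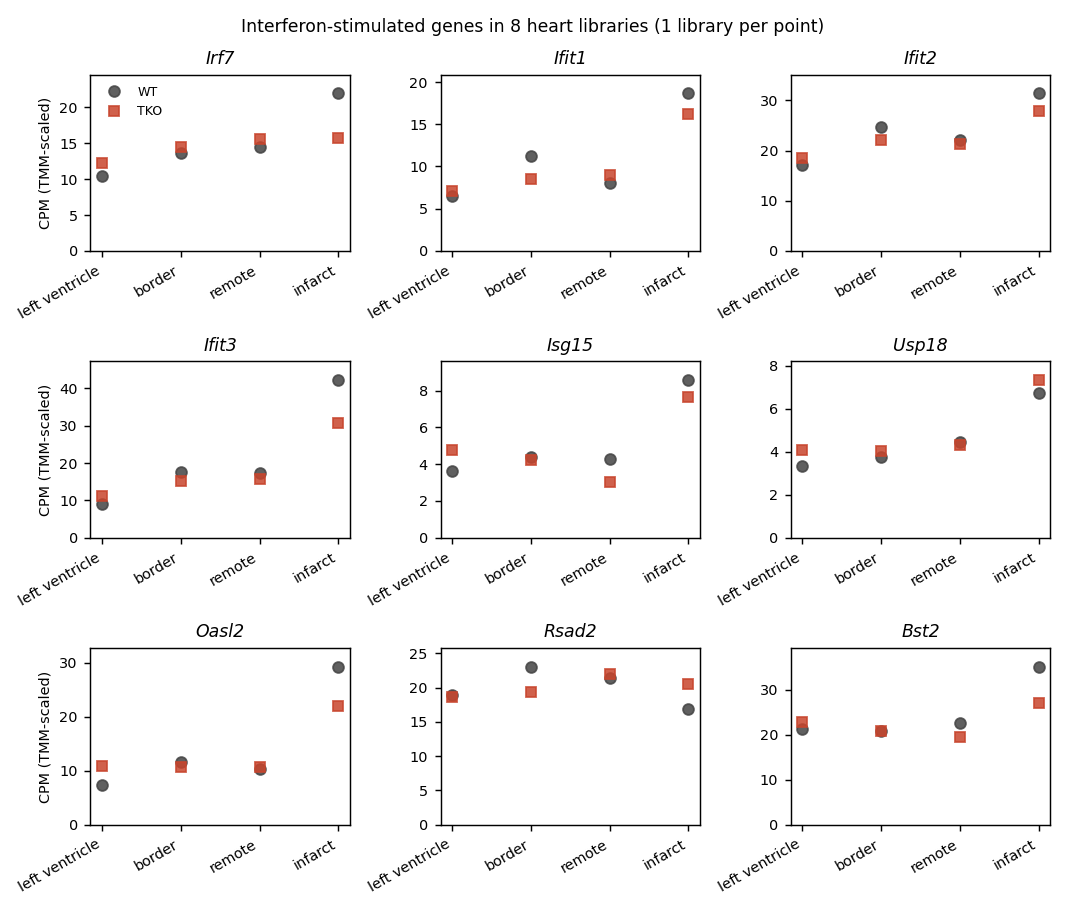
TMM-scaled CPM (linear axis from 0) of the 9 interferon-stimulated genes by heart region, with 1 library per point, WT as circles and TKO as squares. For 8 genes both infarct zone libraries lie above the other 6, by little for Irf7. For Rsad2 the WT infarct zone is the lowest library, at 16.8 CPM.

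Set over the left ventricle of its own genotype, the infarct zone ratio was larger in WT for 8 of the 9 genes. The members' median was 2.11 in WT and 1.60 in TKO, against 1.01 in both over all genes tested. A ratio of at least 2 was reached by 6 members in WT (Ifit1, Ifit3, Isg15, Irf7, Oasl2 and Usp18), where 18.8% of all genes did so, and by 3 in TKO (Ifit1, Ifit3 and Oasl2), where 16.2% did. The ratio of Oasl2 was 4.01 in WT and 2.04 in TKO, so that the TKO ratio was 0.508 of the WT ratio (95% counting interval 0.415 to 0.622). For Ifit3 the ratios were 4.72 and 2.78, and the TKO ratio was 0.59 of the WT ratio (0.489 to 0.711). For Irf7 they were 2.11 and 1.29, or 0.611 (0.505 to 0.74). The TKO ratio was 0.80 of the WT ratio for Ifit1 (0.634 to 1.009) and 0.883 for Usp18 (0.637 to 1.223), intervals that held 1. The intervals of Ifit2, Isg15 and Bst2 lay below 1. Rsad2 went the other way, with 0.891 in WT and 1.10 in TKO. The median of this quotient over the 9 members was 0.717, and over all genes it was 1.04, with 45.5% of genes below 1. The comparison rests on 4 libraries with no replicate, and it was set up after the values were seen.

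The border and remote zones differed less from the left ventricle. In the border zone no member was called by edgeR's quasi-likelihood test, where 0.669% of all genes were called higher; 3 members (Ifit3, Ifit2 and Ifit1) had an unadjusted p under 0.05, as did 17.9% of all genes, and DESeq2 called Ifit3 alone. Border zone differences were 0.71 for Ifit3, 0.53 for Ifit1 and 0.39 for Ifit2 on the log2 scale, with adjusted p of 0.136, 0.201 and 0.155 (edgeR). In the remote zone no member was called, as was true of all genes (0% called higher); Ifit3 and Ifit2 had an unadjusted p under 0.05, as did 10.6% of all genes, and DESeq2 called no member. Ifit3 differed by 0.71 on the log2 scale in the remote zone, with an adjusted p of 0.327 (edgeR).

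Single ratios to the left ventricle outside the infarct stayed under 2 in either genotype, whereas 5.45% (WT) and 4.42% (TKO) of all genes reached 2 at the border and 3.42% (WT) and 3.11% (TKO) did so in remote tissue. At the border the members' median ratio was 1.31 for WT and 1.04 for TKO, while in remote tissue it was 1.29 for WT and 1.16 for TKO. The highest was Ifit3 in the WT border zone, at 1.98 (95% interval 1.70 to 2.31). The lowest was Isg15 in the TKO remote zone, at 0.638 (0.482 to 0.843). The 3 comparisons with the left ventricle share its libraries.

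The TIGAR genotype did not separate these genes across regions. With region as a block, edgeR's quasi-likelihood test called none of the 9 members, and none had an unadjusted p under 0.05; DESeq2 also called none. Calls were rare over all genes in this fit, at 0.138% of those tested. The differences of TKO over WT on the log2 scale ran from -0.14 ± 0.12 (SE) for Ifit3 and -0.12 ± 0.10 (SE) for Bst2 to 0.12 ± 0.13 (SE) for Usp18. A p that misses the threshold does not show that the genotypes are alike.

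Region by region, the direction was not the same. In the left ventricle 8 of the 9 members were higher in TKO, with a median ratio of 1.18. The counting interval held 1 for 6 of the 9. Of all genes with a ratio there, 6668 of 12989 were higher. The highest members were Oasl2 at 1.49 (1.24 to 1.79), Isg15 at 1.33 (1.01 to 1.74) and Ifit3 at 1.24 (1.04 to 1.48). In the infarct zone 7 of the 9 were lower in TKO, with a median ratio of 0.87, and the counting interval held 1 for 2 of the 9. Of all genes with a ratio there, 6392 of 12996 were lower. The lowest members were Irf7 at 0.719 (0.647 to 0.799), Ifit3 at 0.731 (0.678 to 0.789) and Oasl2 at 0.756 (0.691 to 0.828). The share of all genes whose counting interval leaves out 1 was not taken, so these intervals describe single genes. Rsad2, at 1.22 (1.10 to 1.36), was higher in the TKO infarct zone. In the infarct zone only the higher directions turned on the scaling. With total counts, which moved the median of all genes there by -0.29 on the log2 scale, all 9 members were below 1 and Rsad2 was at 0.998. With DESeq2 size factors 7 were below 1. Under TMM, total counts and DESeq2 size factors alike, 2 members lay above the median of all genes. No scaling can change this count, as it moves the ratios of all genes alike. In the same pair of libraries 11 of 12 heart muscle markers were higher in TKO, with a median ratio of 1.91 against 1.005 over all genes tested. Of 19 leukocyte markers, 18 were lower there, with a median of 0.634. Leukocyte markers were also lower elsewhere, 17 of 19 in the left ventricle (median 0.803), 18 at the border (0.806) and 16 in remote tissue (0.761). The heart muscle medians were 1.138, 1.144 and 1.079 in that order. The part of both marker sets in the members' ratios was not tested. The border zone median was 0.93, with Ifit1 lowest at 0.759 (0.643 to 0.896), and the remote zone median was 0.966, with Isg15 lowest at 0.71 (0.538 to 0.934). Directions at the border turned on the scaling too, as 3 members lay above 1 under TMM and 1 with total counts. No member differed by 2-fold in any region, as did 5.6% of genes for the left ventricle, 3.83% for the infarct, 4.49% for the border and 3.56% for the remote libraries.

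The difference between regions was tested itself, as the departure of 1 region's genotype difference from the other 3. No member was called in any region by edgeR's quasi-likelihood test, where 0.646% of genes were called for the left ventricle, 0.00769% for the infarct zone and 0% for each of the border and remote zones. For the left ventricle, Oasl2 departed by 0.74 and Ifit3 by 0.58 on the log2 scale (unadjusted p of 0.0187 and 0.022, adjusted p of 0.208 and 0.22, edgeR). For the infarct zone, Irf7 departed by -0.62 (unadjusted p of 0.0145, adjusted p of 0.433, edgeR). No other member had an unadjusted p under 0.05, which 16.8% of all genes had for the left ventricle and 7.83% for the infarct zone, and DESeq2 called no member, although it gave none of the 9 an adjusted p for the infarct zone. This fit leaves 2 residual degrees of freedom, and on simulated data it missed departures of 2-fold, which is more than any member's departure here. Its lack of calls therefore says nothing on whether the genotype difference of these genes varies by region.

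**Figure D3:**
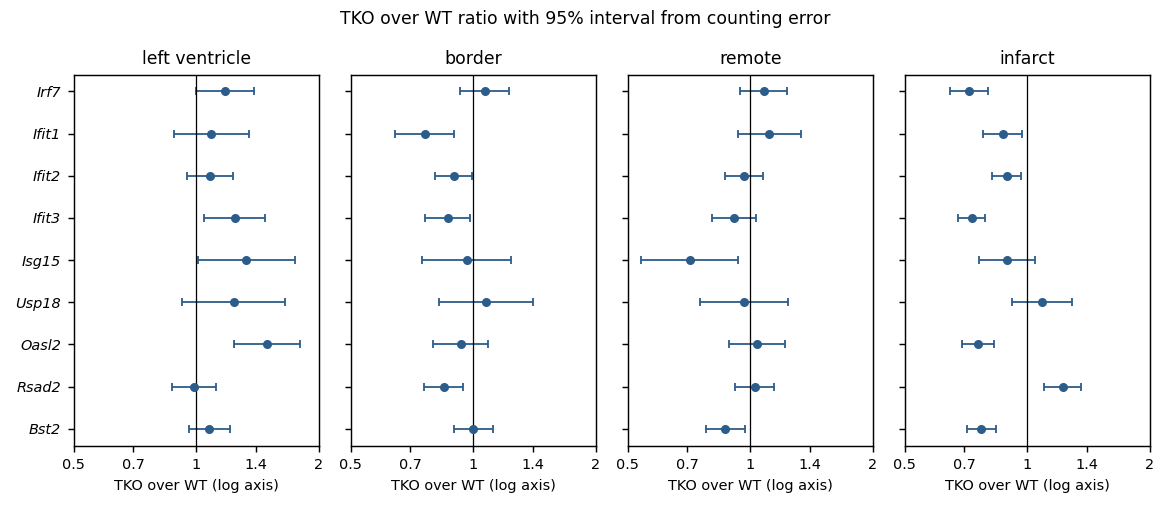
TKO over WT ratio of TMM-scaled CPM (log axis) for the 9 interferon-stimulated genes in each region; bars are 95% intervals from counting error only, since each library is single. In the left ventricle 8 genes lie above 1, and 6 of the 9 intervals hold 1. In the infarct zone 7 lie below 1, and 2 of the 9 intervals hold 1.

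Genes that act before these 9 in the pathway were read from lists, whose counts stand against 28.2% of all genes called higher and 28.6% called lower in the infarct zone. Of 17 nucleic acid sensors and their adaptors, 12 were higher and 1 was lower in the infarct zone across genotypes. Zbp1, which senses Z-form nucleic acid including that of mitochondria, and Tlr9, which senses unmethylated DNA in endosomes, rose by 2.33 and 2.49 on the log2 scale (adjusted p = 0.000927 and 0.00295, edgeR). Cgas, the cytosolic DNA sensor, rose by 1.64 and Ddx58, which encodes the RNA sensor RIG-I, by 1.06 on the log2 scale (adjusted p = 0.00668 and 0.000999, edgeR). Mavs, the adaptor of RIG-I on the mitochondrial outer membrane, was the 1 gene that fell, by 1.06 on the log2 scale (adjusted p = 0.00159, edgeR). Its level was 60.7 CPM in the WT and 64.3 CPM in the TKO left ventricle, against 24.5 and 36.4 CPM in the infarct zones. None of the 17 was called for genotype, and 5 had an unadjusted p under 0.05 (edgeR), where 16.2% of all genes did. Among those 5, Mavs was higher in TKO and the others were lower. The list's median TKO over WT difference was -0.324 on the log2 scale, against -0.0024 over all genes tested.

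Both receptor genes were higher in the infarct zone, Ifnar1 by 0.94 and Ifnar2 by 0.48 on the log2 scale (adjusted p = 0.00126 and 0.0187, edgeR). Ifnb1 and the other 6 interferon genes of the list were not among the 16994 genes under those symbols, so their levels could not be read. Of 9 genes of ISGF3 and its kinases and regulators tested, 7 were higher and none lower in the infarct zone; Irf8, a myeloid transcription factor, rose by 1.88 and Irf9 by 0.51 on the log2 scale (adjusted p = 0.000531 and 0.0187, edgeR). Tyk2 was listed at 0 in 4 libraries. None of these genes was called for genotype.

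Of 43 other interferon-stimulated genes tested, 30 were higher and none lower in the infarct zone, with a median log2 change of 0.68. Slfn8 and Oas3 rose by 2.38 and 2.42 on the log2 scale (adjusted p = 0.00237 and 0.00464, edgeR), while Trim25 and Ifi35 differed by 0.04 and -0.17 and were not called. Of 16 genes linked to interferon gamma, 5 rose and 1 fell in the infarct zone, a share of higher calls near the 28.2% of all genes, and the list median was 0.18 on the log2 scale. Among them Ciita, the switch of MHC class II genes, rose by 2.33 and Gbp2 by 1.13 on the log2 scale (adjusted p = 0.00183 and 0.000555, edgeR), and Ifngr2, a receptor chain, fell by 0.90 on the log2 scale (adjusted p = 0.00233, edgeR). Neither list held a gene called for genotype.

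Markers of other cells moved with the infarct zone too. The summed level of 23 leukocyte markers was 445 CPM in the WT and 382 CPM in the TKO left ventricle. It was 720 and 521 CPM in the border, 647 and 444 CPM in the remote and 1913 and 1386 CPM in the infarct zones. This sum is weighted to abundant genes, as Lyz2 alone was at 917.5 CPM in the WT infarct zone. Of the 19 that entered the tests, 18 were higher in the infarct zone and none was lower; Ptprc, the pan-leukocyte surface protein, rose by 2.55 on the log2 scale (adjusted p = 0.000184, edgeR). For genotype, Ptprc was lower in TKO by -0.67 on the log2 scale (adjusted p = 0.0431, edgeR) and no other leukocyte marker was called, although 15 of the 19 had an unadjusted p under 0.05, against 16.2% of all genes. Tyrobp was listed at 0 in 5 libraries. All 8 fibroblast markers were higher in the infarct zone, and 11 of 12 heart muscle markers were lower. The 9 endothelial markers held 1 higher and 1 lower, and all 5 red blood cell markers were higher. Of 4 plasmacytoid dendritic cell markers tested, 2 were higher and 1 was lower; the latter, Cox6a2, is also a muscle gene. In bulk tissue fewer cells of a type and less RNA per cell cannot be told apart, and the part of these cells in the members' levels was not tested.

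**Figure D4:**
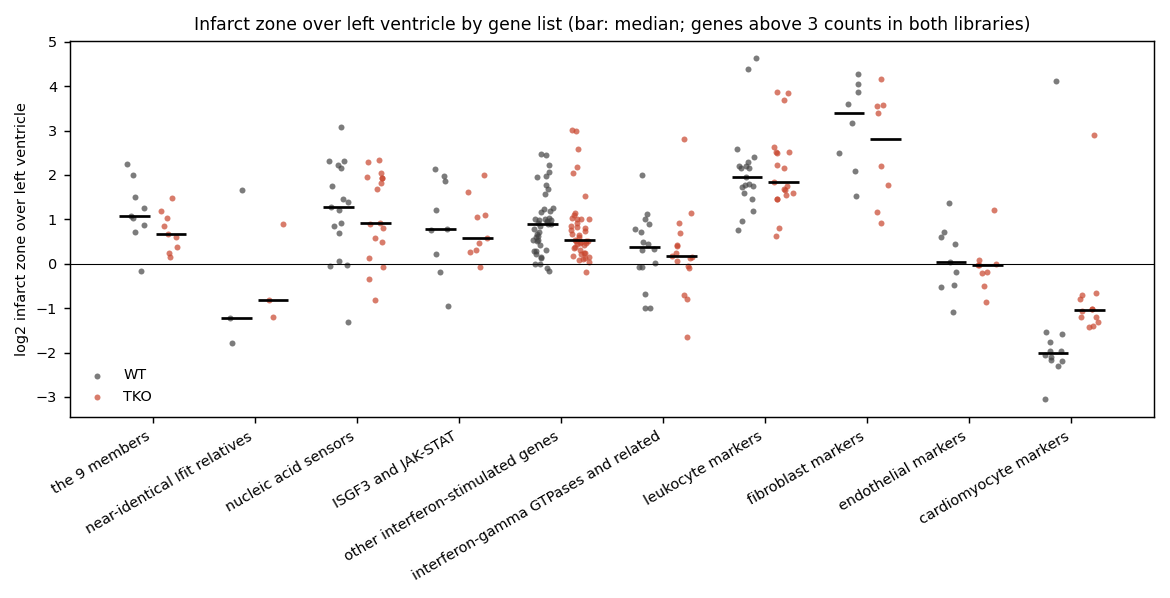
log2 ratio of infarct zone to left ventricle for each gene of 10 lists, with WT in grey and TKO in red, 1 point per gene with more than 3 counts in both libraries; black bars are medians. The 9 interferon-stimulated genes have positive medians in both genotypes, leukocyte and fibroblast markers lie higher, and heart muscle markers lie below 0 except Nppa.

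The 5 genes whose level over the 8 libraries was most like the members' mean were Nfkb1, Smo, Myoc, Evc and Tiam1. Pearson correlations on the log2 scale were 0.993 to 0.994, out of 12990 genes ranked. Nfkb1, a subunit of the transcription factor NF-kappa B, was at 38.0 CPM in the WT left ventricle and at 73.2 CPM in the WT infarct zone. The 8 points share libraries and scaling, and the infarct zone sets much of their spread.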

How the data were processed

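RNA of 8 heart samples was sequenced, 1 library for each genotype and region. The authors trimmed reads with Trim Galore 0.6.5, estimated transcript abundance with kallisto 0.46 on an mm10 transcriptome and summed it to genes with tximport; the deposited values are estimated counts per gene, held as whole numbers with no normalization. The submitters' notes also name edgeR 3.34.1. The annotation release is not given in the sources used here.

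Samples were grouped by their titles. Counts were tested with edgeR 4.0.16 in R 4.3.3 by the quasi-likelihood test on genotype and region without interaction, on genes whose CPM averaged 1 or more, with TMM factors; the fit leaves 3 residual degrees of freedom. Adjusted p-values are Benjamini-Hochberg over all genes tested, with a threshold of 0.05. Ratios of 2 libraries carry 95% Clopper-Pearson intervals of the 2 counts, and quotients of 2 ratios a 95% normal interval on the log scale; both cover counting error only, and 3 counts were taken as the floor. DESeq2 1.42.0, other scalings and filters and left-out libraries were alternatives. Tests were checked on simulated data with 2-fold changes; edgeR's departure tests missed these and were then also checked with 8-fold changes, most of which they recovered. Regions of 1 genotype may come from the same mice, so p-values measure the spread between libraries.

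The members and gene lists were chosen with earlier results of these data known. Beside the 9 members, the text names Tigar, the Ifit relatives and the 5 genes most like the members' mean. It also names genes at either end of some of the lists by their mean ratio. Ptprc and Siglech are named as the first genes of their cell type lists. Tyk2, Tyrobp and Lyz2 were named after their values were seen, and the quotient of the infarct zone ratios was also chosen then. The values of 1 listed gene are not reported here. Gene positions are from GENCODE M21 (GRCm38, the mm10 assembly), and promoters from RefSeq. Python 3.11.15 with matplotlib drew the plots.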

Additional observations from a re-analysis of the deposited data

How the results depend on the processing

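The infarct zone call of 8 members was 8 under DESeq2 and 4 other settings and 9 with total counts; it was 5 to 8 when 1 library was left out. Without the WT infarct zone or without the WT left ventricle library it was 5, as Isg15, Irf7 and Bst2 were no longer called (adjusted p of 0.0897, 0.0659 and 0.14 without the former and 0.0717, 0.0788 and 0.102 without the latter, edgeR), and without the TKO infarct zone Isg15 was not (0.0619, edgeR). With total counts Rsad2 changed sign, from -0.01 to 0.67. All infarct zone calls over all genes, 7385, were 4716 to 7243 with 1 library left out, and total counts moved the split from 3670 higher and 3715 lower to 7869 and 1084. Genotype calls over all genes, 18, were 342 by DESeq2, 56 with total counts and 3 to 80 with 1 region left out, and no member was called in any of these. Border zone calls, 93, were 576 by DESeq2, 200 with total counts and 2 to 388 with 1 library left out; member calls there, 0, were 1 by DESeq2 and 0 to 1 with 1 library left out (Ifit3 without the TKO left ventricle, adjusted p = 0.0369, edgeR). Remote zone calls, 0, were 162 by DESeq2, 18 with total counts, 3 with no filter and 0 to 65 with 1 library left out. With total counts the members' median was 0.71 for TKO over WT in the infarct zone, and 3.75 in WT and 2.32 in TKO for infarct zone over left ventricle; the other settings moved these medians by less. Leaving a library out leaves its partner as the only library of the region, which is assumed to vary like the others. The cause of these shifts was not tested. The genotype test pairs WT and TKO libraries by region, since region is its block; replicate numbers pair nothing further, as each group holds 1 library.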
